A study of Homo sapiens with 12 samples.

Results

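RNF2, an enzyme that places a single ubiquitin on histone H2A, was compared with the mark itself, H2AK119ub, along the genome of H1 human embryonic stem cells. All 29310 RNF2 peaks and all 43331 islands of H2AK119ub in the deposited lists were taken, which gave 72641 of the 117365 regions in the 4 lists of the series. Both marks had been mapped by chromatin immunoprecipitation and sequencing (ChIP-seq) in wild-type, untreated H1 cells, an established line grown in mTESR1 medium, with 2 biological replicates for RNF2, 2 for H2AK119ub and 2 for input chromatin. The replicates of each antibody had been merged into 1 list, so a spread between replicates could not be computed, every value below is a description of those lists, and no p-value is given. Intervals are 95% intervals over peaks, islands or genes and cover counting error only. No RNA was measured, so the labelled cell type was not checked against its marker genes.

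RNF2 (also called RING1B) and its paralogue RING1 are the catalytic subunits of Polycomb repressive complex 1 (PRC1), and each pairs with a PCGF protein. Canonical PRC1 carries a CBX protein that reads trimethylated lysine 27 of histone H3, the product of PRC2, whereas variant PRC1 carries RYBP or YAF2, and the variant that holds KDM2B binds unmethylated CpG. H2AK119ub is removed by the deubiquitinase BAP1 with an ASXL partner, among others. In embryonic stem cells the system is known for covering genes of developmental regulators, and the mark is known to be found also outside the sites where the enzyme is most concentrated.

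The 250 bases before the start of 4 coding genes show the range of promoters met in the comparison. They are RefSeq sequences of GRCh38.p14, written 5′ to 3′ on the strand of the gene, with every CG in capitals because the share of promoters under RNF2 rose with CG number; each was picked near the median CG number of its class. NKX6-1, a neural transcription factor gene (minus strand, chr4:84499293-84499542), lay under an RNF2 peak over 20 kb wide and an island, and holds 23 CG. HDAC1, a histone deacetylase gene (plus strand, chr1:32291833-32292082), lay under an island and an RNF2 peak of 1 to 2 kb, and holds 21. TNNT2, the cardiac troponin T gene (minus strand, chr1:201377681-201377930), lay under an island without RNF2 and holds 5. OR6K2, an olfactory receptor gene (minus strand, chr1:158700653-158700902), lay under neither and holds 2.
NKX6-1: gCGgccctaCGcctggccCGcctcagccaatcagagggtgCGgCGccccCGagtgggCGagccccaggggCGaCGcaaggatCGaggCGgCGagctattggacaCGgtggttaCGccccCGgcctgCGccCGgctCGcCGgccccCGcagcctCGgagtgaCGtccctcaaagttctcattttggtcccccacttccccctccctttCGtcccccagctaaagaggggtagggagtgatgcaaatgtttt
HDAC1: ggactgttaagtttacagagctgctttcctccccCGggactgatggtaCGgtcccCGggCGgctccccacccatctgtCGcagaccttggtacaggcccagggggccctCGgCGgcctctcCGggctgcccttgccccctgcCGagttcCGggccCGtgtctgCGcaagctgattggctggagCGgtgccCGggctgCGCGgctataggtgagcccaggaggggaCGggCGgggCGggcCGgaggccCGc
TNNT2: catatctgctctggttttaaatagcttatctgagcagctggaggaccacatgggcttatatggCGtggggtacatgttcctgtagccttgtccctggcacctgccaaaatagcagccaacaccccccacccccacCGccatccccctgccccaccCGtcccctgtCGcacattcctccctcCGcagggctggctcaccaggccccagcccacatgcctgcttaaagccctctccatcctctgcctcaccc
OR6K2: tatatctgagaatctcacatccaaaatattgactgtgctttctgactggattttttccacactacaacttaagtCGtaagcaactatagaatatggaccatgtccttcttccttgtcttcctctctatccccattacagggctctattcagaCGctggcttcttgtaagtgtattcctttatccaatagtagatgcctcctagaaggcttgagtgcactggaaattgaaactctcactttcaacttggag

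The mark covered far more of the genome than its enzyme, and nearly all of the enzyme lay within the mark. Islands covered 310.2 Mb and RNF2 peaks 66.5 Mb, of which 60.6 Mb was shared. RNF2 thus lay over 19.5% of the island length, whereas islands lay over 91.1% of the RNF2 length. An island had a median width of 4.60 kb (interquartile range 3.20 to 7.60 kb) and reached 213.2 kb at most, and an RNF2 peak had a median of 1.35 kb (0.761 to 2.33 kb) and reached 181.4 kb. Of the islands, 17268 of 43331 overlapped an RNF2 peak by at least 1 bp (39.9%, 39.4% to 40.3%), and of the RNF2 peaks 24948 of 29310 overlapped an island (85.1%, 84.7% to 85.5%). The lists were drawn at unequal resolution: every island was a whole number of 200-bp windows and no neighbouring islands lay closer than 800 bp, while RNF2 peaks came as near as 141 bp to each other. How much of an island's reach beyond RNF2 comes from that coarser grid and how much from the chromatin cannot be told apart in these lists.

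The RNF2-free length of the mark fell into 3 parts of unequal size. Islands with no RNF2 peak held 127.0 Mb, the flanks of islands beyond their outermost RNF2 peaks held 98.0 Mb, and the stretches between RNF2 peaks of the same island held 24.6 Mb. Islands with RNF2 made up 59.0% of the island length, and 33.1% of their pooled length was under RNF2. They were wider than islands without RNF2, with medians of 6.60 and 4 kb, and their median island score in the deposited list was 89.6 against 14.8. Of the 3494 islands at the score's ceiling of 1000, 3434 held RNF2 (98.3%, 97.8% to 98.7%). An island without RNF2 lay a median of 22.4 kb from the nearest RNF2 peak, 13.1% of them lay within 5 kb of one and 26.8% over 50 kb away, so most were not the immediate neighbours of a peak.

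Where an island held RNF2, the mark usually ran past the enzyme on both sides. The length of island beyond the outermost RNF2 peaks, both flanks summed, had a median of 3.81 kb (3.74 to 3.88 kb, interquartile range 2.02 to 7.08 kb), and 2613 of 17268 islands had 10 kb or more. The longer flank had a median of 2.67 kb and the shorter of 1.02 kb. The mark extended past RNF2 on both sides in 14127 islands (81.8%), on 1 side in 2597 (15%) and on neither in 544 (3.15%). The sides with lower and higher coordinates were alike in length, with medians of 1.73 kb (1.69 to 1.76 kb) and 1.74 kb (1.71 to 1.78 kb). In islands with a single RNF2 peak, the peak's summit lay within the island in 96.2% and within the central one of 3 equal parts of the island in 58.6%, and it stood a median of 0.746 kb from the island's midpoint. The mark was split unevenly around the peak in most of these islands, with the shorter flank making up a median of 28.7% of both flanks (interquartile range 13.1% to 39.9%).

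The reach of the mark from an outermost RNF2 edge was nearly the same for RNF2 peaks of all widths up to 5 kb and shorter for wider ones. From the outermost edge to the island's end, the median was 1.89 kb for peaks of up to 1 kb (1.85 to 1.94 kb, 9557 edges), 1.73 kb for 1 to 2 kb (1.69 to 1.77 kb, 12668 edges) and 1.88 kb for 2 to 5 kb (1.83 to 1.93 kb, 9621 edges). It was 0.917 kb for 5 to 10 kb (0.803 to 1.02 kb, 1711 edges) and 0 for the 549 edges of peaks of 10 to 20 kb and the 430 edges of wider ones. RNF2 reached or passed the island's end at 7.53%, 7.12% and 9.61% of edges in the 3 narrower classes, and at 29.4%, 55.6% and 76.7% in the classes of 5 to 10, 10 to 20 and over 20 kb. At most of the outermost edges formed by RNF2 peaks over 10 kb, no mark was therefore listed beyond the enzyme. Edges with another RNF2 peak farther out in the same island are not counted here. Of all peaks of 10 to 20 kb 54.8% lay wholly inside an island, and of those over 20 kb 41.1%. Of all 34536 edges, 15.4% had at least 5 kb of mark beyond them and 4.63% at least 10 kb.

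**Figure D1:**
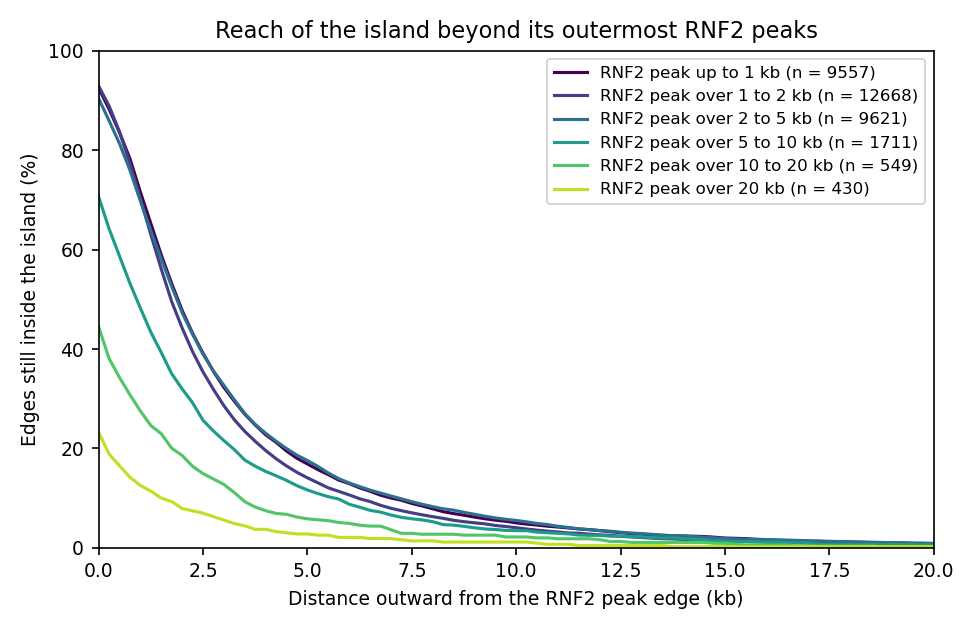
Share of outermost RNF2 edges (y axis, %) from which the H2AK119ub island still continued at a given distance outward (x axis, kb), 1 line per class of RNF2 peak width with its number of edges. The lines for peaks of up to 5 kb lie close together, at 69.7% to 71.5% at 1 kb, while the line for peaks over 20 kb starts at 23.3% at distance 0 and stands at 12.6% at 1 kb.

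Most islands with RNF2 held a single peak, and a small number held many. The count was 1 peak in 13173 islands (76.3%, 75.6% to 76.9%), 2 in 2592, 3 in 780, and 5 or more in 435. At least 10 peaks lay in 82 islands and at least 20 in 5, with 25 at most. Because the crowded islands hold many peaks each, 47.8% of the RNF2 peaks on an island shared it with another RNF2 peak. Most peaks fitted inside the mark: 21826 of the 24948 peaks on an island lay wholly within it (87.5%), and 186 touched 2 or more islands. Within islands of like width, those with 2 or more peaks had more of their length under RNF2 and shorter flanks. A further peak in an island adds to the share and can only shorten or keep the flanks. Both differences are thus tied to peak number in part by construction. In islands of 10 to 20 kb, the share was 28.5% with 2 or more peaks (27.4% to 30%, n = 1268) against 15.1% with 1 (14.6% to 15.8%, n = 2008), and the flanks summed to 6.38 against 10.5 kb.

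The share of an island's length under RNF2 was low in most islands and spread widely. Its median over the 17268 islands with RNF2 was 29.8% (29.3% to 30.2%), with 9.25% at the 10th and 73.7% at the 90th percentile. In 4173 islands at least 50% lay under RNF2 (24.2%), in 1975 less than 10% (11.4%), and 363 lay wholly under RNF2 (2.1%). Among islands over 20 kb with RNF2 the shares gathered at both ends of the range. Of these 1959 islands, 24.5% had under 10% of their length under RNF2 and 24.7% had 10% to 20%, between 2.40% and 3.57% stood in each step of 10 points from 40% to 90%, and 9.75% (8.47% to 11.1%) had 90% or more. The islands at the upper end held the strongest RNF2 peaks. The median of the strongest fold enrichment per island was 71.2 there and 4.08 in islands under 10%. The median number of RNF2 peaks was 1 in both of these groups. Islands of 5 to 10 kb had a single crest, at 20% to 30% (21.7% of 5876), with 3.81% at 90% or more.

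**Figure D2:**
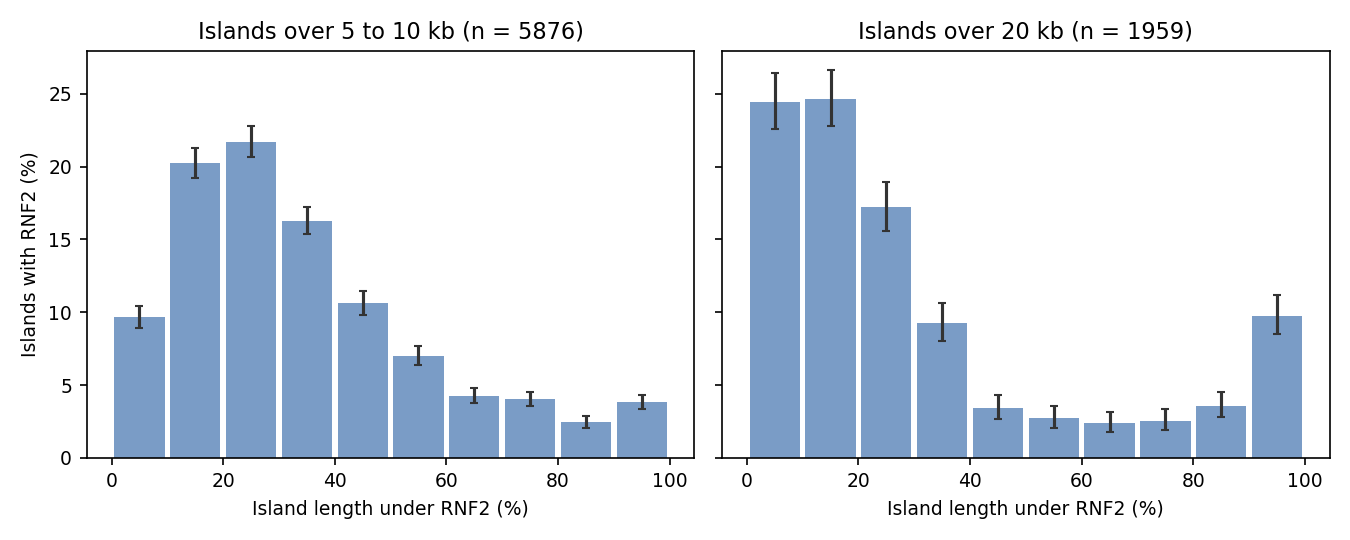
Distribution of the share of island length under RNF2 (x axis, %, in steps of 10 points) among H2AK119ub islands with RNF2 of 5 to 10 kb (left, n = 5876) and over 20 kb (right, n = 1959); bars give the share of islands (y axis, %) and whiskers exact binomial 95% intervals. The right panel is high below 30%, low from 40% to 90%, and rises again to 9.75% in the last bar.

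Wider islands more often held RNF2. A wider island also has more room to meet a peak at the overlap of 1 bp used. This rise, and the rise in peak number below, are thus tied to width in part by construction, and how far was not tested. The share with RNF2 was 21.9% of 3121 islands up to 2 kb wide, 26.2% of 20903 at 2 to 5 kb, 47.4% of 12384 at 5 to 10 kb, 68.8% of 4759 at 10 to 20 kb, 88.9% of 1830 at 20 to 50 kb and 99.4% of 334 over 50 kb, and no 2 of these intervals overlapped. The share with 2 or more peaks, among islands with RNF2, went from 3.22% in the narrowest class to 92.2% in the widest. With RNF2 present there were 6.45 peaks per 10 kb of island in the narrowest class, 1.1 at 10 to 20 kb and 0.897 over 50 kb. Each of these values is bounded from below, since every island counted must hold at least 1 peak. That bound falls as islands widen, so the fall in density does not show that peaks are sparser in wide islands. Density over all islands, with or without RNF2, was not computed.

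In wider islands the RNF2-free length also moved from the flanks to the spaces between peaks. The summed flanks had a median of 0.786, 2.18, 4.57, 9.23, 13.8 and 14.8 kb in the 6 width classes from narrow to wide, so they grew little beyond 20 kb. The stretches between peaks made up 7.82% of the pooled length of RNF2-holding islands of 10 to 20 kb, 20.9% at 20 to 50 kb and 37.8% over 50 kb. Among islands with RNF2, the median share under RNF2 fell with width, from 49.4% through 37.1%, 29.1% and 20.5% to 19.6% at 20 to 50 kb (18.2% to 20.7%), and stood at 26.2% over 50 kb (22.4% to 30.2%). Over all islands, with or without RNF2, the pooled length under RNF2 went the other way: 10.7%, 11.1%, 16.8%, 19.8%, 28.1% and 36.4% from narrow to wide. The flank cannot exceed the island, and the share has the island's width as its denominator, so both are tied to width by construction.

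Seen from the RNF2 side, width and strength went with the mark, though a wider peak also has more room to meet an island. An island was present at 69.8% of the 10550 RNF2 peaks up to 1 kb wide (68.9% to 70.7%), 90.1% of the 9638 at 1 to 2 kb, 97.0% of the 7078 at 2 to 5 kb, 99.5% of the 1333 at 5 to 10 kb, all 409 at 10 to 20 kb and all 302 wider ones. Among RNF2 peaks of 1 to 2 kb cut into 4 equal groups by fold enrichment, the authors' own value for each peak, the shares on an island were 81.3%, 87.1%, 94.4% and 97.4% from weakest to strongest. The 4362 RNF2 peaks off any island were narrow and weak: their median width was 639 bp against 1509 bp on islands, and their median fold was 3.08 against 4.01. They lay a median of 11.5 kb from the nearest island, 12.2% of them within 1 kb and 22.8% over 50 kb away.

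RNF2 strength went with the width of the island and the share under RNF2, and hardly with the length of the flanks. With the 17268 islands cut into 4 equal groups by their strongest RNF2 fold, median island width was 5.20, 5.60, 6.80 and 10.2 kb from weakest to strongest, and median share under RNF2 was 17.9%, 26.7%, 32.1% and 50.4%. The summed flanks had medians of 3.95 kb (3.83 to 4.05 kb), 3.69 kb (3.6 to 3.82 kb), 3.97 kb (3.87 to 4.10 kb) and 3.55 kb (3.42 to 3.72 kb). Across these islands Spearman's rho was 0.351 between fold and width and −0.0624 between fold and flank, as a description over islands of the same 2 merged lists.

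Islands at the ends of coding genes held RNF2 more often than islands elsewhere, above all among islands of up to 10 kb. By its midpoint, an island was placed within 2 kb of either end of a coding gene (gene end), inside a coding gene, outside but within 50 kb of an end, or farther away. RNF2 was present at 8138 of 10429 gene-end islands (78.0%, 77.2% to 78.8%), 4516 of 16875 inside genes (26.8%, 26.1% to 27.4%), 3178 of 10168 outside within 50 kb (31.3%, 30.4% to 32.2%) and 1436 of 5859 beyond 50 kb (24.5%, 23.4% to 25.6%). At a matched width of 2 to 5 kb the 4 shares were 71.2%, 12.5%, 16.5% and 15.6%, and at 20 to 50 kb they were 95.2%, 85.4%, 90.3% and 83.2%. The gap between gene ends and the nearest other class was widest at 2 to 5 kb and narrowed in each wider class. A wide island placed elsewhere by its midpoint can still cover gene ends, so the classes are less distinct among wide islands. RNF2 peaks at gene ends were also the most often on the mark: 94.7% lay on an island, against 80.6% inside genes, 79.4% outside within 50 kb and 68.4% beyond 50 kb.

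In the pooled lists and at most widths, the median share under RNF2 was also highest at gene ends. The summed flanks past RNF2 were shortest there in the pooled lists, though the reach per RNF2 edge was not. Among islands with RNF2, the median share under RNF2 was 35.8% at gene ends (35.2% to 36.3%), 22.8% inside genes (22.1% to 23.6%), 23% outside within 50 kb (22.2% to 23.7%) and 26.9% beyond 50 kb (25.1% to 28.7%). The summed flanks had medians of 3.15, 5.42, 4.73 and 3.40 kb in the same order. At a matched width of 5 to 10 kb the share was 33.9% at gene ends and 20.5% to 24.8% in the other classes, and the flanks summed to 4.17 kb against 4.79 to 5.22 kb. The median share was highest at gene ends in each class from 2 to 50 kb. It was not in the narrowest class (52.6% against 54.8% outside within 50 kb) or over 50 kb (30.9% against 35.8% outside within 50 kb). At 10 to 20 kb its interval overlapped that beyond 50 kb (22.4% to 24.9% against 16.4% to 24.5%). At 20 to 50 kb it overlapped that outside within 50 kb (21.6% to 25.5% against 17.1% to 23.2%). The median flanks at gene ends were the shortest from 2 to 20 kb. At 2 to 5 kb their interval overlapped that beyond 50 kb (2.041 to 2.135 kb against 2.043 to 2.28 kb). It did so too at 10 to 20 kb (8.33 to 8.82 kb against 8.14 to 9.66 kb). Gene-end flanks were not the shortest at 20 to 50 kb (12.5 kb against 11.8 kb outside within 50 kb), nor in the narrowest and widest classes. Wide islands outside by midpoint can cover genes: that at HOXC4 (176.8 kb, 9 coding genes) was classed outside within 50 kb. Islands at gene ends held 2 or more RNF2 peaks less often than those inside genes in the pooled lists, 16.9% against 31%, and they were narrower, with medians of 5.60 and 9.20 kb. At 10 to 20 kb the corresponding shares were 35.9% and 37.1%, so at that width they were close.

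**Figure D3:**
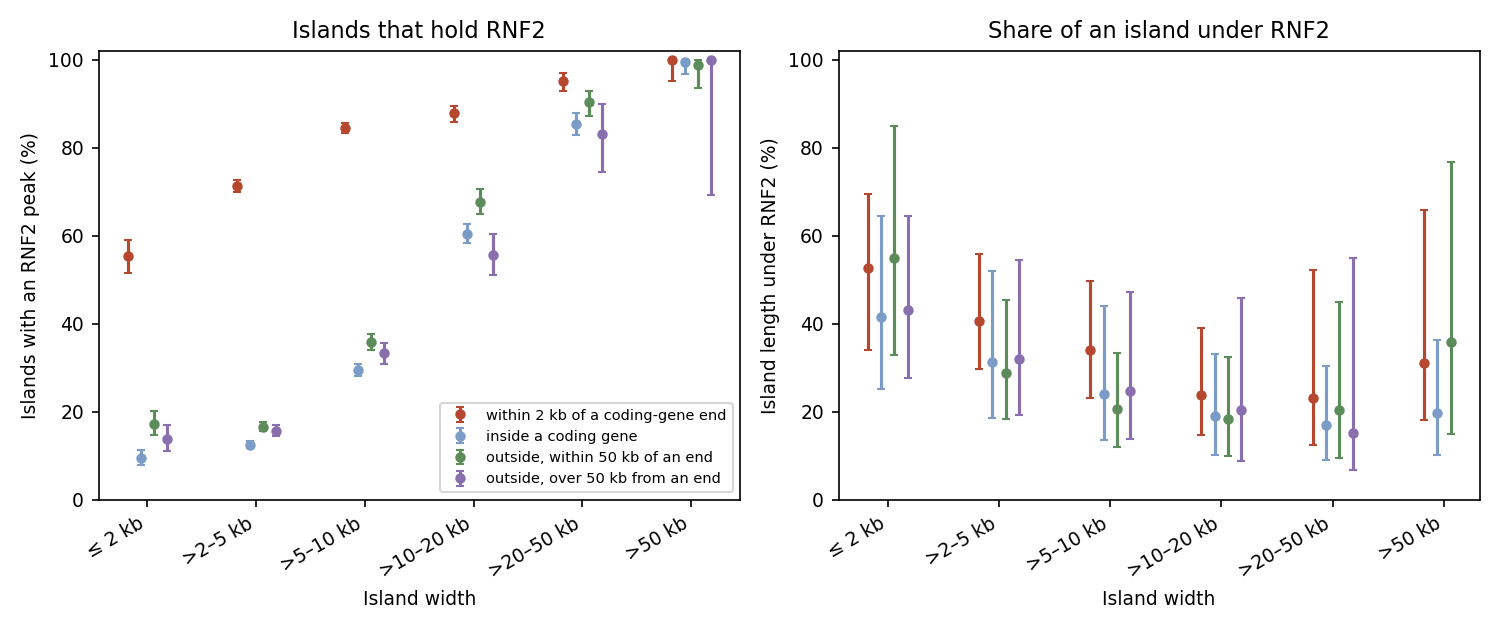
Left, share of H2AK119ub islands with an RNF2 peak (y axis, %, whiskers exact binomial 95% intervals) and right, median share of island length under RNF2 among islands with RNF2 (y axis, %, whiskers the interquartile range), both by island width (x axis) and by position to coding genes (colours); medians over fewer than 20 islands are not drawn. Gene-end islands stand at 71.2% in the class of 2 to 5 kb, where the other positions stand at 12.5% to 16.5%, and all positions come near 100% over 50 kb.

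The 2 ends of genes were then told apart with the strand of 15841 of 20033 coding genes. For 4763 genes of at least 20 kb with no other coding-gene end within 5 kb of either end, RNF2 lay within 2 kb of the 5′ end in 3303 (69.3%, 68.0% to 70.7%) and of the 3′ end in 202 (4.24%, 3.69% to 4.85%). An island lay at the 5′ end in 3542 (74.4%) and at the 3′ end in 1055 (22.1%). Of the 5′ ends with an island 88.7% had RNF2 too (87.6% to 89.7%), and of the 3′ ends with an island 16.6% (14.4% to 19.0%). RNF2 at gene ends was therefore mostly RNF2 at starts, and the mark at 3′ ends was mostly mark without an RNF2 peak in the window.

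Beyond RNF2, the mark reached about as far on the upstream side of a gene start as on the side of the gene. In 5678 islands with RNF2 over exactly 1 coding 5′ end, the flank beyond the outermost RNF2 peak had a median of 1.52 kb on the side of the gene (1.47 to 1.57 kb) and 1.60 kb on the upstream side (1.56 to 1.66 kb). The side of the gene was the longer in 2701 of the 5505 islands with unequal flanks (49.1%, 47.7% to 50.4%). Where the gene was 50 kb or longer this share was 47.4% (45.4% to 49.4%), slightly below an even split. RNF2 itself was placed asymmetrically, reaching a median of 1.25 kb into the gene and 0.873 kb upstream of the start. Counted from the start, the island as a whole also reached farther into the gene, with medians of 3.21 kb and 2.82 kb upstream.

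Promoters with RNF2 were rich in CG, and promoters with the mark alone much less so. CG was counted in windows of 300 bases, from 250 before to 50 after the start, for the 15841 coding genes with a RefSeq promoter sequence; the motif reads the same on both strands and 72.8% of all windows held at least 10. RNF2 and an island both overlapped 9357 windows (59.1%), an island alone 1923 (12.1%), RNF2 alone 735 (4.64%) and neither 3826 (24.2%). The median number of CG was 28 with both, 9 with an island alone, 22 with RNF2 alone and 4 with neither. A count of at least 10 CG was found in 94.5%, 50%, 94.8% and 27.3% of these windows. The share of windows with both rose in every step of CG number, from 3.06% at 0 to 2 CG through 28.7% at 6 to 10 to 91.3% at 31 or more, whereas an island alone was most frequent at 6 to 10 CG (31.6%). The 4 promoters printed above were picked near the median CG number of their class, so their order shows nothing further. CG number did not rise steadily with the width of the RNF2 peak: among windows with both, the median was 24.5 CG for RNF2 peaks up to 1 kb, 30 for 2 to 5 kb and 24 for peaks over 20 kb.

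Genes of developmental transcription factors had an enzyme that filled the mark. A gene was counted where an RNF2 peak and an island overlapped the same window of 2 kb around one of its ends, which held for 12817 of 20033 coding genes (64.0%), and its longest island at an end was described. That island may lie at either end, and not always at the end with both. Across all coding genes, 32.4% had an island of at least 10 kb at an end, 3.14% had one at least 90% under RNF2, and the median share under RNF2 was 26.7% over the 15215 genes with an island. All 39 HOX genes, which set position along the body axis, had both. They lay on 5 islands of 66.8 to 180.2 kb, all at least 98.2% under RNF2, so they count as 5 regions and not 39. All 28 neural transcription factor genes had both, on 27 islands, and 21 of the genes had an island at least 90% filled, with a median share of 98.5% and a median island of 35.4 kb.

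The neural genes differed in how many RNF2 peaks made up that filling. NKX6-1, which patterns the ventral neural tube, had the strongest RNF2 peak of the list, 109.4-fold and 37.3 kb wide, over the whole of its island of 29.2 kb. PAX2, active in the midbrain and hindbrain boundary and in the kidney, had 5 RNF2 peaks over 94.0% of 63.4 kb. SIX3, a forebrain factor, had 6 over 92.4% of 56.4 kb, and NEUROD2, a factor of neuronal differentiation, 9 over 79.9% of 72.0 kb. In these 3 islands the gaps between RNF2 peaks summed to 3.49, 1.15 and 12.9 kb. An island that holds several peaks spans their gaps by definition, and no neighbouring islands lay closer than 800 bp.

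Of the mesoderm list, 23 of 24 transcription factor genes had both and 14 had an island at least 90% under RNF2, with a median share of 96.1%. GATA4, a heart and gut factor, carried the strongest RNF2 enrichment of any island with RNF2, 155.2-fold, and 98.0% of its island of 82.2 kb was under RNF2. PAX7, a muscle and neural crest factor, had 18 RNF2 peaks over 67.1% of 140.4 kb, and TBX1, a pharyngeal factor, 8 over 67.3% of 91.2 kb. MEOX1, a somite factor, was the member without both: its island of 11.6 kb held no RNF2 peak. Of the endoderm list, 18 of 20 had both and 13 were at least 90% filled, with a median share of 96.5%. CDX2, an intestinal factor, stood at 99.4% of 43.0 kb, FOXA2 at 88.1% of 51.6 kb and ISL1 at 97.2% of 35.6 kb, while the island at HNF4A (6 kb), a liver factor, held no RNF2. MEOX1 and HNF4A are named because they had an island without RNF2, and were chosen after their values were seen. For comparison, all islands of 20 to 50 kb with RNF2 had a median share of 19.6%. What goes with such filling, beyond width, was not tested.

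Secreted developmental signals stood between those factors and the other lists. Of 31 genes 27 had both, 22 had an island of at least 10 kb, 3 were at least 90% filled, and the median share was 66.2% over the 30 with an island. WNT1 and WNT10B, neighbouring genes for Wnt ligands, shared an island of 53.0 kb with 89.7% under RNF2, and SFRP1, a secreted Wnt antagonist, had 6 RNF2 peaks over 34.6% of 50.4 kb. Of 28 pluripotency genes, 16 had both (57.1%, against 64.0% of coding genes), a difference that changed sides with the settings: 71.4% against 67.3% with a 5-kb window, and 50% against 47.4% with the better-scoring 50% of each list. In this list the median share was 19.3% over the 25 with an island. SOX2, which is also a neural factor, had 92.6% of 46.8 kb under RNF2, and FOXD3 88.2% of 21.2 kb. The highest share of the list was at KLF5, 97.5% of 9.2 kb, named after its value was seen. UTF1 had 38.4% of 40.6 kb under 6 RNF2 peaks, and CRIPTO, a Nodal co-receptor gene, had 3 RNF2 peaks in its island of 31.8 kb, 9.99% of the length, none of them at an end of the gene. The islands at the core factors POU5F1 (14.0 kb) and NANOG (2 kb), named for their role after their values were seen, held no RNF2 peak.

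Most genes of the machinery were themselves under enzyme and mark, where 64.0% of all coding genes had both and the median share was 26.7%. RNF2 had 1 RNF2 peak of 3.81 kb, 7.66-fold, over 63.5% of an island of 6 kb at its end, with flanks of 1.28 and 0.917 kb. RING1 had 6 RNF2 peaks over 56.6% of an island of 42.2 kb. Of 8 catalytic and PCGF genes 7 had both: BMI1 lay in an island of 39.2 kb wholly under 1 RNF2 peak, PCGF1 in 50.2 kb at 80.3%, and PCGF2 in 102.8 kb at 63.4% under 13 peaks. Of 11 canonical PRC1 genes 10 had both. CBX2 and CBX8, readers of trimethylated lysine 27, shared a single island of 105.0 kb with 6 RNF2 peaks over 73.4%. Of 22 variant PRC1 genes 19 had both, with a median share of 28.5%, near that of all coding genes (AUTS2 100% of 40.6 kb, BCOR 92.1% of 40.6 kb, FBRSL1 26.7% of 62.4 kb under 10 peaks, in an island at its 3′ end).

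Genes of the writers of trimethylated lysine 27 and of the erasers of the mark had both at shares nearer to the 64.0% of coding genes at large, in lists of 13 and 17 genes. Of 13 PRC2 genes 9 had both (69.2%), with a median share of 32.8% over the 12 with an island, and none was at least 90% filled. EPOP shared the island of PCGF2, PHF1 had 29.3% of 26.4 kb and JARID2 17.6% of 12.8 kb under RNF2. Of 17 H2A deubiquitinase and partner genes 13 had both (76.5%), with a median share of 38.8% over 15. ASXL1, the BAP1 partner, had a long island at its 3′ end, 65.4 kb with 4 RNF2 peaks over 11.4%, and a flank of 32.7 kb. USP3 stood at 80% of 35.4 kb, and HERC2 had an island of 19.8 kb, 69.9% under RNF2, with no RNF2 peak within 2 kb of its ends.

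Ribosomal protein genes, which every cell uses, stood near coding genes at large. Of 71, 49 had both (69.0%, against 64.0%), 28 had an island of at least 10 kb (39.4%, against 32.4%), none was at least 90% filled (against 3.14%), and the median share was 20.9% over 60 (against 26.7%). With the better-scoring 50% of each list they stood below coding genes, 32.4% against 47.4% with both. RPS2 lay in an island of 162.4 kb with 18 RNF2 peaks over 28.0%, and RPS15 in one of 151.0 kb with 20 over 36.4%. RPLP2 lay in an island of 121.0 kb with 13 RNF2 peaks over 23.3%. These 3 islands cover many neighbouring genes as well. Of 34 genes of differentiated tissues 10 had both (29.4%), with a median share of 17.6% over 18, and TNNT2 and MYH7, both cardiac muscle genes, had islands of 16 and 22.8 kb without RNF2, named after their values were seen. INS, the insulin gene, lay in an island of 94.4 kb with 4 RNF2 peaks over 24.7%, none of them at an end of the gene. CKM, muscle creatine kinase, lay in an island of 76.8 kb with 6.10% under RNF2, and SFTPC, a lung surfactant gene, in 103.0 kb with 78.2%. Olfactory receptor genes were mostly free of both: 7 of 390 had both (1.79%) and 371 had neither.

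**Figure D4:**
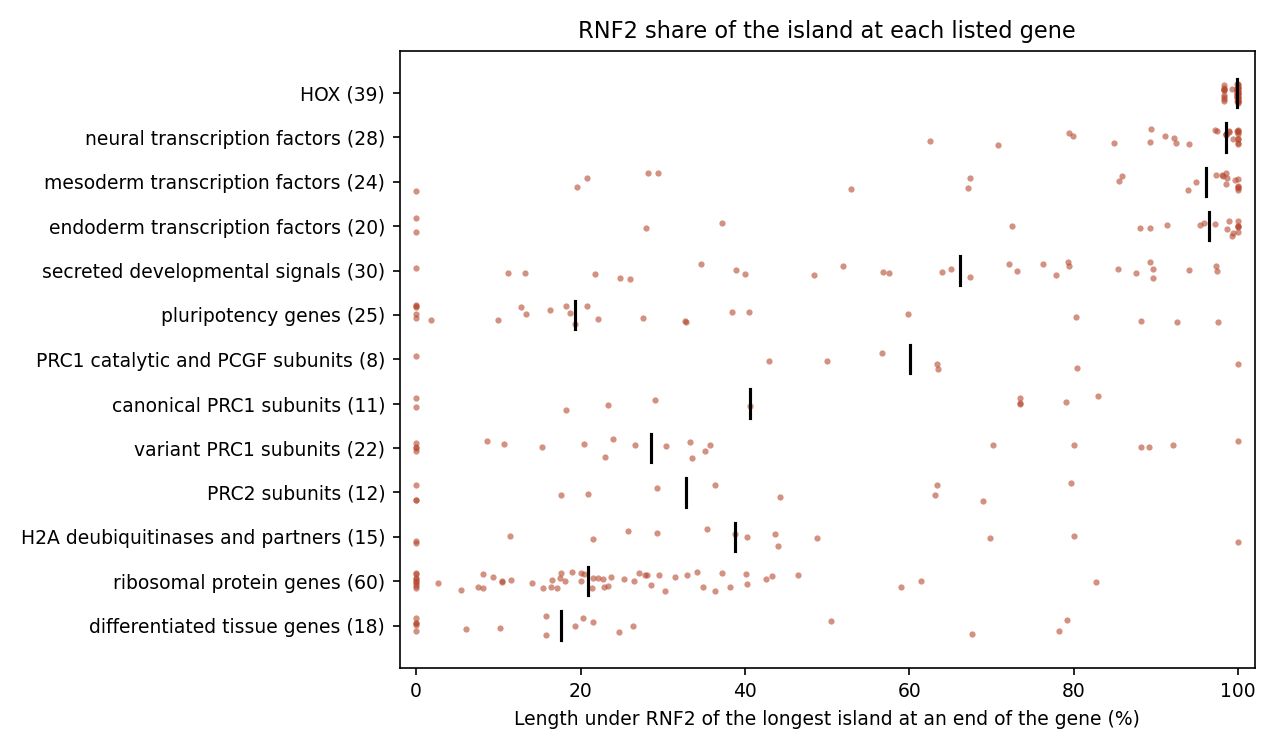
Share under RNF2 (x axis, %) of the longest H2AK119ub island at an end of each listed gene, 1 point per gene and 1 row per list, with the number of genes that have an island; black bars are medians, vertical scatter within a row has no meaning, and genes that share an island share its value. HOX, neural, mesoderm and endoderm genes crowd at the right end (medians 96.1% to 99.9%), and ribosomal protein genes lie mostly below 50% (median 20.9%).

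The longest islands ranged from sparsely occupied to filled at like width. The longest with a coding-gene end inside, named by the gene it overlaps most, lay at MACROD1 (chr11:63957601-64170800, 213.2 kb, 4 coding genes) with 16 RNF2 peaks over 15.2%. RAI1 (201.8 kb) had 18 over 48.2%, and NECTIN1 (chr11:119575401-119766200, 190.8 kb, 1 coding gene) 4 over 4.84%. HM13 (179.8 kb) stood at 9.59% and SLC38A12 (173.4 kb) at 15.9%. Against these, the HOXA3 island (chr7:27079801-27260000, 180.2 kb, 13 coding genes) was 99.9% under a single RNF2 peak of 181.4 kb, with 0.186 kb of mark beyond it on 1 side and none on the other. The HOXC4 island (176.8 kb) stood at 99.9% and that at HOXB3 (172.8 kb) at 98.2%. NECTIN1 and the HOXA3 island, 190.8 and 180.2 kb wide, thus lay near opposite ends of the range.

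Of the 6 islands with the most RNF2 peaks, 5 covered 7 or more coding genes. SPEG, a muscle kinase gene, lay in the island with 25 peaks (chr2:219423201-219579400, 156.2 kb, 9 coding genes, 31.5% under RNF2). HAPLN2 followed with 22 peaks (52.0% of 133.0 kb), WDR90 with 21 (34.1% of 132.2 kb, 16 coding genes), PPP1R16A with 20 (41.0% of 126.8 kb, 17 coding genes) and APC2 with 20 (36.4% of 151.0 kb, 10 coding genes). FOXP4, a forkhead transcription factor gene, had 19 peaks over 75.2% of 90.6 kb and was the only coding gene there.

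Of the 6 islands with the longest flank, 5 held a single RNF2 peak. At GLI2, a transcription factor of Hedgehog signalling, an island of 78.0 kb (chr2:120757401-120835400) held 1 RNF2 peak of 3.34-fold over 1.40% of its length, and the mark ran on for 76.2 kb on 1 side. A further island of 49.0 kb within GLI2 (chr2:120836601-120885600), separated from it by 1.20 kb, held no RNF2 and was the third longest without it. IGSF21 had an island of 96.2 kb with 1 RNF2 peak over 0.391% and flanks of 68.2 and 27.6 kb (chr1:18148401-18244600), and a further one of 55.2 kb without RNF2. GSE1, with 5 RNF2 peaks, had a flank of 68.2 kb, SHANK2, a synaptic scaffold gene, 58.7 kb, MEGF6 54.5 kb, and LFNG, a modifier of Notch receptors, 54.4 kb. GRM4, a glutamate receptor gene, held the longest island without RNF2 (chr6:34044801-34117800, 73.0 kb), 13.7 kb from the nearest RNF2 peak, and KDM4B the fourth (48.0 kb), 127.0 kb from one. Shares under 1% in islands of at least 10 kb were also found at NECTIN2 (0.598%), TNS4 (0.709%), USHBP1 (0.882%) and KNDC1 (0.900%), each with 1 RNF2 peak of 3.04-fold to 4.45-fold.

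At the other end, the 6 longest islands wholly under RNF2 lay at genes of developmental transcription factors. These were HOXD3 (136.0 kb), ZIC4 (76.6 kb), NR2F1 (chr5:93567001-93624600, 57.6 kb), ALX4 (47.0 kb), DLX6 (44.8 kb) and TFAP2B (42.8 kb), each under a single RNF2 peak with folds of 74.6 to 118.0. RNF2 without the mark was rarer and much smaller. The longest RNF2 peaks off any island were 7.43 kb within GREB1L (4.15-fold), 6 kb near TFAP2B (4.24-fold, 4.96 kb from an island), 5.88 kb in a stretch whose nearest coding gene is FMR1, 199.9 kb away (4.66-fold, 0.336 kb from an island), and 5.74 kb near TFAP2D (2.84-fold).

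**Figure D5:**
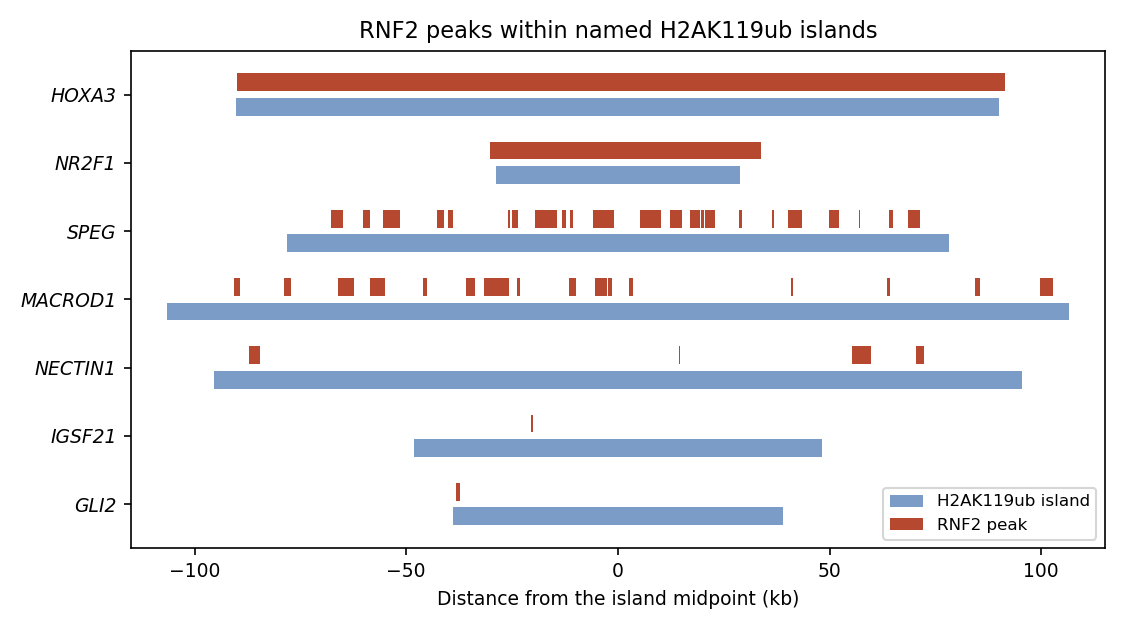
RNF2 peaks (red, upper bar of each pair) and H2AK119ub islands (blue, lower bar) at 7 named islands, to scale, by distance from the island's midpoint (x axis, kb). HOXA3 and NR2F1 carry 1 RNF2 peak that spans nearly all or all of the island, SPEG, MACROD1 and NECTIN1 carry 25, 16 and 4 separate peaks, and IGSF21 and GLI2 carry 1 narrow peak in islands of 96.2 and 78.0 kb.

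Among chromosomes, the share of islands with RNF2 ran from 26.3% on chromosome 22 (24.1% to 28.6%, 1526 islands) to 51.1% on X (46.8% to 55.4%, 548 islands), and all others lay between, Y with 14 islands only. YTHDF1, the N6-methyladenosine reader whose binding the series also maps in the same cells, gave a readout from a further antibody. A YTHDF1 peak overlapped 33.3% of islands with RNF2 and 13.8% of those without. At a width of 2 to 5 kb the shares were 18.8% and 10.3%, and at 20 to 50 kb 70.9% and 56.2%, so part of the pooled gap went with island width.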

How the data were processed

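ChIP-seq of RNF2 and H2AK119ub in untreated H1 cells, 2 replicates each, had been merged by the authors into 1 list per antibody, per the labels. The submitters' processing notes name hg38 as the build, SICER 1.1 and MACS2 2.1.0 as callers, and Bowtie2 2.2.5, Trimmomatic 0.35, Picard and SAMtools 1.3.1 before them; for the caller behind either list, its settings and its input, the sources used here give nothing. The RNF2 list holds, as deposited by the authors, a score, a fold enrichment (a ratio) and −log10 p and −log10 q per peak, with a lowest −log10 q of 4.01. The H2AK119ub list holds a score with a ceiling of 1000, as deposited, and its end is the last base of a 200-bp window, so 1 was added. Read depth is unknown, so no depth-based interval or floor is given. The knockdown list was not used here.

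Overlaps of at least 1 bp were computed with Python 3.11.15, pandas 2.3.3, NumPy 2.4.6 and SciPy 1.17.1 (figures with matplotlib 3.10.9), and the overlap code was tested on simulated intervals. The flank is the island length beyond the outermost RNF2 peaks, and the share is the island length under RNF2. Shares of counts carry exact Clopper-Pearson intervals, medians order-statistic intervals. Genes were the 20033 RefSeq coding genes of GRCh38.p14 on the 22 autosomes, X and Y; a strand was taken from the promoter table for 15841 (79.1%), and all 346 listed genes other than olfactory receptors were matched. The regions, gene lists and tests were chosen with earlier results of these data known. Named regions were the extremes of width, peak number, flank and share, and named genes the 3 longest islands and strongest RNF2 peak of each list, plus RNF2 and RING1; a region carries the name of the coding gene that overlaps it most or lies nearest. A few regions and genes that these rules pick are not reported here. Alternatives were a stricter overlap, stricter peaks, merged neighbours, autosomes alone and other gene-end windows.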

Additional observations from a re-analysis of the deposited data

How the results depend on the processing

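No paired analysis was possible because the replicates of each antibody had been merged into 1 list, and for the same reason no replicate could be left out. Values below moved beyond the counting interval of the reported value, or, for a count, by over 1.5 times (for the share of all island length, by 0.5 percentage points or more). Of the 14 gene lists, 1 changed sides against all coding genes with a window of 5 kb and 2 with the better-scoring 50%: pluripotency genes with both went from 57.1% against 64.0% to 71.4% against 67.3% and to 50% against 47.4%, and ribosomal protein genes from 69.0% against 64.0% to 32.4% against 47.4% with the better-scoring 50%. Shares and flanks by position and width, 5′ and 3′ ends and CG classes were not recomputed. With RNF2 peaks of at least 5-fold alone, islands with RNF2 went from 39.9% to 16.4%, RNF2 peaks on an island from 85.1% to 98.5%, island length under RNF2 from 19.5% to 12.4%, the median share from 29.8% to 38.2%, the flank from 3.81 to 4.51 kb, islands with 2 or more peaks from 23.7% to 9.56%, gene-end islands with RNF2 from 78.0% to 35.6% and those beyond 50 kb from 24.5% to 6.49%. With the better-scoring 50% of each list the same 8 values were 49.0%, 89.0%, 21.1%, 33.2%, 4.62 kb, 14.2%, 72.8% and 27.5%, and ribosomal protein genes with both fell from 49 to 23. Islands merged within 1 kb gave 43.9% with RNF2, a median share of 28.9%, a flank of 3.99 kb, 25.5% with 2 or more peaks, 80.6% at gene ends and 26% beyond 50 kb. RNF2 peaks merged within 1 kb gave a share of 30.3% and 13.9% with 2 or more peaks. When 50% or more of the shorter region had to overlap, the values were 39.0% of islands, 83.3% of RNF2 peaks, a flank of 3.89 kb and 76.4% at gene ends. Gene-end islands held RNF2 in 82.2% with a window of 0.5 kb, 70.2% with 5 kb and 73.7% by any overlap with the window, and 7 olfactory receptor genes with both became 4 at 0.5 kb. The 8 values for autosomes alone did not move by these limits (island length under RNF2 19.4%). Gene ends held RNF2 more often than islands beyond 50 kb under each of these settings. How many peaks an island holds therefore depends on the strength threshold and on how neighbouring peaks or islands are joined, and how many islands hold RNF2 on the strength threshold and on how islands are joined; read depth and the callers' gap settings, which could set both, were not analysed here.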
